A study of Homo sapiens with 9 samples.

Results

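The results below concern 8 genes of PANC-1 cells, a human line from a pancreatic ductal carcinoma, that were strongly lower in both of 2 transporter lines than in the vector line: MYH15, HLX, SH3TC2, SH3TC2-DT, SIPA1L2, ZMAT1, MCTP1 and ELL2. They are 8 of 16750 genes measured. They were chosen by their falls against vector in these same libraries, so those falls are given as a description and with no test, and only the difference between the 2 transporter lines is tested for them. The lines were SLC22A10_OE, transduced by lentivirus with SLC22A10, SLC22A15_OE, transduced with SLC22A15, and the control, transduced with the empty vector. SLC22A10 and SLC22A15 belong to a family of membrane transporters for organic ions. All 3 groups were selected and kept in puromycin as stable clones, so all carried a viral insertion and the selection agent. Each group had 3 libraries of ribosomal RNA-depleted total RNA, from 28.4 to 42.9 M reads. How many clones a group held, and whether its libraries came from separate cultures, is not stated in the labels. The p-values thus measure the spread between libraries, which may be technical. A difference due to the transporter and one between clones cannot be told apart in this design, and in bulk RNA neither can fewer cells expressing a gene and less RNA per cell.

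The transduced genes followed the labels. SLC22A10 averaged 85.4 ± 5.53 CPM (reads scaled to library size; SD, n = 3) in SLC22A10_OE, was at 0 in all 3 SLC22A15_OE libraries, and averaged 0.00938 ± 0.0162 CPM in vector. SLC22A15 averaged 3.84 ± 0.357 CPM in SLC22A10_OE, 75.9 ± 2.48 CPM in SLC22A15_OE and 6.11 ± 0.571 CPM in vector. One library of each group (SLC22A10_OE library 3, SLC22A15_OE library 1 and vector library 1) had less mitochondrial ribosomal RNA, 0.00958% to 0.0151% of its reads against 0.0454% to 0.0843% in the other 6. The sample titles end in A1, A2 and B1 in each group, a marking the labels do not explain, and the numbered columns could not be matched to those endings, so it is unknown whether these 3 libraries share one. Of 8 ductal epithelial markers, 5 were measured here, and their summed level was 532 to 593 CPM in SLC22A10_OE, 287 to 321 CPM in SLC22A15_OE and 436 to 475 CPM in vector, with SOX9 the highest. Markers of fibroblasts (3 of 8 measured) summed to 5.32 to 7.05 CPM in SLC22A10_OE, 0.875 to 1.21 CPM in SLC22A15_OE and 3.40 to 4.56 CPM in vector. Those of immune cells (3 of 8 measured, CD68 the highest) summed to 32.0 to 35.3, 23.2 to 23.7 and 19.1 to 22.7 CPM in the same order of groups, and those of endothelium (2 of 6) to 7.20 to 8.50, 4.73 to 5.49 and 2.84 to 3.999 CPM. The part of these markers and of the mitochondrial ribosomal RNA in the results was not tested.

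The known roles of the 8 genes differ, and whether they share a pathway was not tested. MYH15 encodes a muscle-type myosin heavy chain, HLX a homeobox transcription factor, and ELL2 a factor that keeps RNA polymerase II moving along genes. SH3TC2 encodes an adaptor of recycling endosomes, MCTP1 a calcium-binding membrane protein, SIPA1L2 a protein of the family that switches off Rap GTPases, and ZMAT1 a zinc finger protein. SH3TC2-DT is a long noncoding RNA that starts beside SH3TC2 and runs the opposite way. Most are better known from muscle, nerve, blood or embryo than from pancreatic ducts.

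In every case the 3 libraries of each transporter line lay below all 3 vector libraries. Fold changes are limma estimates on log2(CPM + 1), which understates the change of genes near 1 CPM. A fit across all 14554 genes that reached 1 CPM in at least 3 libraries gave the spread. All 8 genes passed that filter, SH3TC2-DT only through its vector libraries. Against vector, 34.7% of all genes tested were called higher and 32.5% lower in SLC22A10_OE, and 10.8% were called higher and 9.58% lower in SLC22A15_OE, at an adjusted p under 0.05. The 2 comparisons share the vector libraries.

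**Figure D1:**
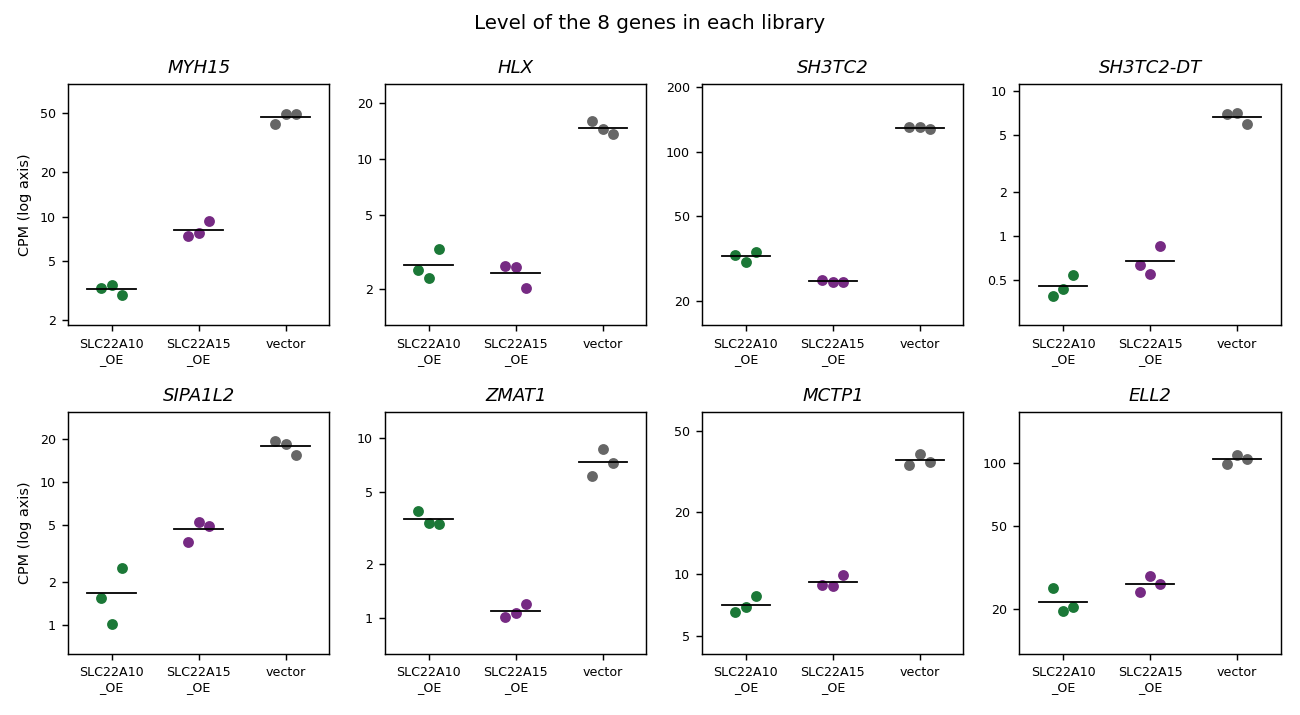
Level of each of the 8 genes in CPM (log axis) in the 3 libraries of SLC22A10_OE, SLC22A15_OE and vector, 1 point per library and a bar at the mean. In all 8 panels the vector points lie above every point of both transporter lines, and the transporter lines overlap each other for HLX and ELL2.

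MYH15 was far lower in both lines than in vector. The gene encodes a sarcomeric-type myosin heavy chain known from extraocular muscle, and lies on the minus strand of chromosome 3 at 108380368 to 108551072 (GRCh38, as are all positions here). Its level was 3.28, 3.43 and 2.95 CPM in SLC22A10_OE libraries 1 to 3, 7.33, 7.75 and 9.37 CPM in SLC22A15_OE, and 42.2, 49.0 and 49.3 CPM in vector. All 3 SLC22A10_OE libraries were the lowest, those of SLC22A15_OE lay between, and no group overlapped another. The means were 3.22 ± 0.248 CPM in SLC22A10_OE and 8.15 ± 1.08 CPM in SLC22A15_OE, which is 6.88% and 17.4% of the 46.8 ± 4.02 CPM in vector. The log2 fold change was -3.50 in SLC22A10_OE and -2.39 in SLC22A15_OE (SE 0.10 each). The order of the 8 genes by fold depends on the added 1 CPM. In the authors' deposited table MYH15 has -3.85 in SLC22A10_OE, beside -3.89 for SH3TC2-DT, and -2.52 in SLC22A15_OE, beside -3.27 for SH3TC2-DT, -2.75 for ZMAT1 and -2.61 for HLX.

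Other myosin II genes did not fall as a group. Of 21 tested genes for myosin II heavy and light chains and their regulators, 7 were called higher and 9 lower in SLC22A10_OE, and 1 higher and 3 lower in SLC22A15_OE. The median log2 fold changes of the list were -0.09 and -0.02, against 0.00 and 0.01 for all genes tested. With each library centred on its median the SLC22A10_OE split was 5 higher and 10 lower. With any 1 library left out, the SLC22A15_OE counts ran from 0 to 1 higher and from 2 to 4 lower, and with a term for the libraries poor in mitochondrial ribosomal RNA they were 2 and 7. MYH16, a sarcomeric myosin gene that is a pseudogene in humans, fell to 2.95 ± 0.153 CPM in SLC22A10_OE and 4.61 ± 0.782 CPM in SLC22A15_OE, against 12.7 ± 1.23 CPM in vector (log2 fold changes -1.79 and -1.29, adjusted p = 2.76e-08 and 3.95e-06). The regulatory light chain MYL12A fell by 0.24 and 0.30 on the log2 scale (adjusted p = 0.000942 and 0.00074), while the smooth muscle light chain MYL9 rose by 1.18 and 0.23 (adjusted p = 6.95e-09 and 0.0230). The nonmuscle heavy chain MYH14 had log2 fold changes of 0.35 in SLC22A10_OE and -0.33 in SLC22A15_OE (adjusted p = 0.00657 and 0.0303). The SLC22A15_OE call of MYL9 was lost without SLC22A15_OE library 2 or 3 or vector library 2 or 3 (adjusted p 0.0525 to 0.0966), and that of MYH14 without SLC22A15_OE library 2 or 3 or vector library 1 or 3 (0.0619 to 0.115).

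HLX was lower by nearly the same amount in both lines. It encodes an NKL-class homeobox factor, needed in mice for growth of the embryonic liver and gut and known from T helper cells. The gene is short, on the plus strand of chromosome 1 at 220879443 to 220885059. It had 2.53, 2.29 and 3.27 CPM in SLC22A10_OE, 2.64, 2.60 and 2.03 CPM in SLC22A15_OE, and 15.97, 14.6 and 13.6 CPM in vector. The transporter lines overlapped each other and stayed far below vector. Means of 2.70 ± 0.513 CPM in SLC22A10_OE and 2.42 ± 0.342 CPM in SLC22A15_OE were 18.3% and 16.4% of the vector mean of 14.7 ± 1.19 CPM, with log2 fold changes of -2.09 and -2.20 (SE 0.12). HLX overlaps an antisense RNA gene, HLX-AS1, over 741 bases, and the sources used here do not say whether the counts used strand.

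Among 17 other tested NKL-class homeobox genes, 5 were called higher and 9 lower in SLC22A10_OE (median -0.34), and 1 higher and 2 lower in SLC22A15_OE (median -0.15). With any 1 library left out, the lower count in SLC22A15_OE ran from 1 to 3, with 1 without SLC22A15_OE library 2 or 3 or vector library 3. VAX2, a factor of eye development, fell to 8.17 ± 0.159 CPM in SLC22A10_OE and 8.71 ± 0.649 CPM in SLC22A15_OE, against 14.1 ± 1.46 CPM in vector (log2 fold changes -0.71 and -0.63, adjusted p = 1.56e-05 and 0.000245). HHEX, a factor of liver and pancreas development, had log2 fold changes of -0.41 and -0.31 (adjusted p = 0.00193 and 0.0347). Its SLC22A15_OE call was lost with the column number as a replicate block (adjusted p = 0.0569), and without any 1 of SLC22A15_OE libraries 1 to 3 or vector library 2 or 3 (0.0696 to 0.124). DLX4 went the other way, with 9.90 ± 0.993 CPM in SLC22A10_OE against 3.03 ± 1.06 CPM in vector (log2 fold change 1.47, adjusted p = 4.01e-06) and 2.56 ± 0.241 CPM in SLC22A15_OE (-0.15, adjusted p = 0.593). EN2 fell in SLC22A10_OE (-0.73, adjusted p = 2.16e-05) and had a log2 fold change of -0.17 in SLC22A15_OE (adjusted p = 0.247).

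ELL2 was the most abundant of the 8 per kb of annotated exon, though SH3TC2 had more CPM in SLC22A10_OE and vector. Its protein is a subunit of the super elongation complex and in plasma cells favours the secreted form of immunoglobulin heavy chain RNA. The gene lies on the minus strand of chromosome 5 at 95885098 to 95961851. Its level was 25.2, 19.7 and 20.5 CPM in SLC22A10_OE, 24.3, 28.8 and 26.3 CPM in SLC22A15_OE, and 98.5, 109.5 and 104 CPM in vector. SLC22A10_OE library 1 stood above SLC22A15_OE library 1, so the transporter lines overlapped. The means of 21.8 ± 2.97 CPM and 26.5 ± 2.23 CPM were 20.9% and 25.4% of the vector mean of 104 ± 5.53 CPM, and the log2 fold changes were -2.21 and -1.94 (SE 0.09).

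The rest of the elongation machinery moved in both directions. Of 27 other tested genes listed for the elongation complexes and P-TEFb control, 8 were called higher and 8 lower in SLC22A10_OE (median 0.01), and 5 higher and 1 lower in SLC22A15_OE (median 0.01). The list also holds NARF, which is not an elongation gene and was called in neither line (adjusted p = 0.757 and 0.199 by limma). Centring gave 6 higher and 11 lower in SLC22A10_OE, and without vector library 3 the lower count there was 5. In SLC22A15_OE the higher count was 1 without vector library 2, and the lower count was 0 without any 1 of SLC22A10_OE library 1 or 2, SLC22A15_OE libraries 1 to 3 or vector library 2 or 3, and 2 with the term for mitochondrial ribosomal RNA. The paralog ELL, named after its values were seen, had log2 fold changes of -0.13 and -0.19 (adjusted p = 0.203 and 0.142), and with the term for mitochondrial ribosomal RNA its adjusted p was 0.0204 and 0.00244. The kinase CDK9, the core of P-TEFb, also named after its values were seen, had log2 fold changes of -0.01 and -0.05 (adjusted p = 0.905 and 0.691). NELFCD, a subunit of the pausing factor NELF, rose by 0.28 on the log2 scale in each line (adjusted p = 6.35e-05 and 0.000393). HEXIM1, which holds P-TEFb inactive, rose by 0.31 and 0.17 (adjusted p = 3.61e-05 and 0.0141), and its SLC22A15_OE call was lost without SLC22A15_OE library 1 or vector library 2 (0.0513 to 0.0580). HEXIM2, its close relative, rose by 0.98 in SLC22A10_OE (adjusted p = 1.88e-06). In SLC22A15_OE the change of HEXIM2 was 0.30 (adjusted p = 0.0484), 0.0708 with the replicate block, 0.0655 with centring, and 0.0562 to 0.192 without any 1 library other than SLC22A15_OE library 3. MEPCE, which caps the RNA that holds P-TEFb, fell by 0.56 in SLC22A10_OE (adjusted p = 7.13e-06) and rose by 0.26 in SLC22A15_OE (adjusted p = 0.0129, and 0.0572 to 0.0622 without vector library 2 or 3).

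SH3TC2 and SH3TC2-DT form a head-to-head pair on chromosome 5, 254 bases apart. SH3TC2 encodes a Rab11 effector of Schwann cells whose loss causes a form of Charcot-Marie-Tooth neuropathy. It lies on the minus strand at 148982150 to 149063062, and SH3TC2-DT on the plus strand at 149063317 to 149109787. The promoter windows of both genes are shown because the pair fell together and the windows share 246 bases, which are the first 246 bases of each sequence, read on opposite strands. They are from RefSeq (GRCh38.p14), 250 bases before to 50 after each start, and capitals mark matches to AP-1 (TGANTCA), TEAD (GGAATG) or ETS (GGAAGT) on either strand, motifs that do not overlap one another here.
SH3TC2, chr5:149063013-149063312, minus strand: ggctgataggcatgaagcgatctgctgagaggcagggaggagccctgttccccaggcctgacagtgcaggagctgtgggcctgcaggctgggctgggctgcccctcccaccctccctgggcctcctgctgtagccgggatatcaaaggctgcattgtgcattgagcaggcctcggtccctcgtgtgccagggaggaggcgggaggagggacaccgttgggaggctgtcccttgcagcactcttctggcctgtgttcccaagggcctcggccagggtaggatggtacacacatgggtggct
SH3TC2-DT, chr5:149063067-149063366, plus strand: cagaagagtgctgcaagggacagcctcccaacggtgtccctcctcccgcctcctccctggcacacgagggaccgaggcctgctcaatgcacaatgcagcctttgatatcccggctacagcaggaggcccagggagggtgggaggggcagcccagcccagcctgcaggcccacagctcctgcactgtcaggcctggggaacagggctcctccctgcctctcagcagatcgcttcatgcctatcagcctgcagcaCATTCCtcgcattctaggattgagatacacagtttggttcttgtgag

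The SH3TC2 window held none of these motifs and the SH3TC2-DT window held 1 match to TEAD, in the bases it does not share. Of all 35116 such windows, 7.71% held the AP-1 motif, 14.0% the TEAD motif and 22.8% the ETS motif. Both windows were GC-rich with few CpG pairs, 65.0% GC with 7 CpG for SH3TC2 and 61.7% GC with 7 CpG for SH3TC2-DT, against medians of 58.7% and 14 over all windows.

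SH3TC2 was measured at 32.8, 30.3 and 33.7 CPM in SLC22A10_OE, 24.9, 24.5 and 24.5 CPM in SLC22A15_OE, and 130.3, 129.9 and 127.8 CPM in vector. Libraries of a group agreed closely, and SLC22A15_OE was the lowest of the 3 groups. Means of 32.3 ± 1.77 CPM in SLC22A10_OE and 24.7 ± 0.224 CPM in SLC22A15_OE were 25.0% and 19.1% of the vector mean of 129 ± 1.31 CPM (log2 fold changes -1.97 and -2.34, SE 0.05).

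SH3TC2-DT, a noncoding RNA with no established function, had 0.388, 0.429 and 0.540 CPM in SLC22A10_OE, 0.635, 0.546 and 0.852 CPM in SLC22A15_OE, and 6.98, 7.03 and 5.94 CPM in vector. These levels rest on 15 reads in each SLC22A10_OE library, 20, 21 and 37 reads in SLC22A15_OE, and 227, 250 and 224 reads in vector. All libraries of the 2 lines lay under 1 CPM. The means, 0.452 ± 0.0786 CPM in SLC22A10_OE and 0.678 ± 0.158 CPM in SLC22A15_OE, were 6.80% and 10.2% of the 6.65 ± 0.618 CPM in vector. Because of the added 1 CPM, the log2 fold changes of -2.40 and -2.19 (SE 0.11) understate this, and the authors' deposited table gives -3.89 and -3.27.

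The noncoding partner thus lost a larger share of its reads than the coding gene in both lines. SH3TC2 exceeded SH3TC2-DT by 84.6, 70.6 and 62.5 times in SLC22A10_OE and 39.3, 45.0 and 28.8 times in SLC22A15_OE, against 18.7, 18.5 and 21.5 times in vector, as ratios of CPM. In every library of both transporter lines the ratio was above those of the 3 vector libraries. The line ratios rest on 15 to 37 reads of SH3TC2-DT per library, so no order between the lines is read from them. MIR584, a microRNA gene, lies within SH3TC2 on the same strand, and small RNAs were not measured.

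Genes of the Rab11 recycling pathway, in which SH3TC2 acts, changed in both directions. Of 25 others tested, 9 were called higher and 8 lower in SLC22A10_OE (median 0.00; 7 and 11 with centring), and 2 higher and 3 lower in SLC22A15_OE (median 0.01). Without vector library 3 the lower count in SLC22A15_OE was 1, and with the term for mitochondrial ribosomal RNA the counts were 5 higher and 7 lower. The Rab11 effector RAB11FIP4 rose to 27.0 ± 0.479 CPM in SLC22A10_OE and 9.27 ± 0.169 CPM in SLC22A15_OE, against 6.34 ± 0.412 CPM in vector (log2 fold changes 1.93 and 0.49, adjusted p = 3.45e-10 and 0.000439). RAB11FIP1 rose by 0.91 and 0.52 (adjusted p = 1.58e-08 and 2.00e-05). The transferrin receptor TFRC, a cargo of these endosomes, fell by 1.59 and 0.25 on the log2 scale (adjusted p = 4.38e-11 and 0.00315). RAB3IP, an exchange factor for Rab8, fell by 1.09 and 0.52 (adjusted p = 1.01e-05 and 0.0140, the second 0.0571 to 0.0573 without vector library 2 or 3). SH3TC1, the paralog of SH3TC2 and named after its values were seen, rose by 1.25 in SLC22A10_OE (adjusted p = 8.72e-06) and had a log2 fold change of 0.26 in SLC22A15_OE (adjusted p = 0.264).

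MCTP1 encodes a protein with calcium-binding C2 domains and a membrane anchor, known from the synapse and the endoplasmic reticulum in flies and cultured neurons. The gene spans 581 kb on the minus strand of chromosome 5, at 94703690 to 95285094, and overlaps SLF1 on the other strand over 35696 bases in the GENCODE annotation. It had 6.59, 6.93 and 7.81 CPM in SLC22A10_OE, 8.86, 8.74 and 9.95 CPM in SLC22A15_OE, and 33.8, 38.5 and 35.3 CPM in vector. SLC22A10_OE was the lowest group and no group overlapped another. The means of 7.11 ± 0.629 CPM and 9.18 ± 0.668 CPM were 19.8% and 25.6% of the vector mean of 35.9 ± 2.40 CPM, and the log2 fold changes were -2.19 and -1.86 (SE 0.09). SLF1 had log2 fold changes of -0.29 in SLC22A10_OE and 0.04 in SLC22A15_OE (adjusted p = 0.00522 and 0.786). MCTP1 has a pair of RefSeq start sites. The inner one, the only window of these genes with an AP-1 match, also had a TEAD match, both in capitals here.
MCTP1, chr5:95081596-95081895, minus strand: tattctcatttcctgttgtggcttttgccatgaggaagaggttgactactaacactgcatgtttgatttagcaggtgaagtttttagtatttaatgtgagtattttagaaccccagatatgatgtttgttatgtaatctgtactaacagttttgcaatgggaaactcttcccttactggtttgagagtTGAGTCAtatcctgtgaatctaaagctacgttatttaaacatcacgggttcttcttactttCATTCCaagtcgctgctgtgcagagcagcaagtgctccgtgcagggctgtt

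Other genes for C2-domain calcium- and lipid-binding proteins, not all of them anchored in the membrane as MCTP1 is, were mostly higher in SLC22A10_OE. Of 24 tested, 14 were called higher and 7 lower there (median 0.47), against 5 higher and 4 lower in SLC22A15_OE (median -0.02). Without SLC22A15_OE library 3 the lower count in SLC22A15_OE was 2. FER1L4, a transcribed pseudogene of the ferlin family, rose to 57.4 ± 1.64 CPM in SLC22A10_OE and 13.0 ± 1.94 CPM in SLC22A15_OE, against 8.04 ± 0.484 CPM in vector (log2 fold changes 2.69 and 0.62, adjusted p = 1.08e-10 and 0.000316). The Rab27 effector SYTL1 rose by 2.09 and 0.55 (adjusted p = 3.61e-09 and 0.00232), and the lipid transfer protein gene ESYT1 by 0.62 and 0.29 (adjusted p = 9.37e-08 and 0.000424). DOC2A, a calcium sensor of vesicle release, rose by 1.50 in SLC22A10_OE (adjusted p = 1.32e-08). Its change in SLC22A15_OE was 0.29 (adjusted p = 0.0362), and 0.0563 to 0.137 without SLC22A10_OE library 2, SLC22A15_OE library 1 or 3 or vector library 2 or 3.

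SIPA1L2 was lower in SLC22A10_OE than in SLC22A15_OE. Its family turns off Rap, a small GTPase of cell adhesion, and the gene lies on the minus strand of chromosome 1 at 232397965 to 232630496. Its level was 1.52, 1.00 and 2.48 CPM in SLC22A10_OE, 3.81, 5.25 and 4.91 CPM in SLC22A15_OE, and 19.4, 18.4 and 15.5 CPM in vector. SLC22A10_OE library 3 was the highest of its group and yet below every SLC22A15_OE library. The means were 1.67 ± 0.751 CPM and 4.66 ± 0.753 CPM, 9.40% and 26.2% of the vector mean of 17.8 ± 2.01 CPM (log2 fold changes -2.84 and -1.73, SE 0.17).

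Of 24 other tested genes for Rap GTPases, their exchange factors, activators and effectors, 9 were called higher and 9 lower in SLC22A10_OE (median -0.01; 7 and 11 with centring), and 4 higher and 4 lower in SLC22A15_OE (median -0.08). The SLC22A15_OE higher count was 2 without SLC22A15_OE library 2 or 3 or vector library 3, and with the term for mitochondrial ribosomal RNA the lower count was 7. RAP2B, a Rap GTPase itself, fell to 179.5 ± 4.21 CPM in SLC22A10_OE and 189 ± 7.35 CPM in SLC22A15_OE, against 377 ± 14.1 CPM in vector (log2 fold changes -1.07 and -0.99, adjusted p = 7.61e-10 and 1.15e-08). KRIT1, a Rap effector of cell junctions, rose by 0.54 and 0.61 (adjusted p = 1.77e-05 and 3.57e-05). RASSF5, a Rap effector in lymphocytes, rose by 0.91 and 0.36 (adjusted p = 3.43e-06 and 0.0202), the second lost without SLC22A15_OE library 2 or 3 or vector library 3 (0.0579 to 0.0631). RAPGEFL1 rose by 0.76 in SLC22A10_OE (adjusted p = 2.00e-07). Its change in SLC22A15_OE was 0.20 (adjusted p = 0.0313), 0.0515 with the replicate block, 0.0521 with centring, and 0.0511 to 0.114 without any 1 of SLC22A15_OE libraries 1 to 3 or vector library 2 or 3.

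The paralogs of SIPA1L2, named after their values were seen, gave no common direction. SIPA1L1 rose by 0.20 and 0.24 on the log2 scale (adjusted p = 0.00478 and 0.00615), the first lost with centring (adjusted p = 0.204). SIPA1 rose by 0.43 in SLC22A10_OE (adjusted p = 0.00839) and had a log2 fold change of 0.01 in SLC22A15_OE (adjusted p = 0.974). SIPA1L3 had log2 fold changes of -0.14 and -0.10 (adjusted p = 0.133 and 0.410), with adjusted p = 0.00836 in SLC22A10_OE under centring, and 0.00058 and 0.0178 with the term for mitochondrial ribosomal RNA.

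ZMAT1 had the smallest fall of the 8 in SLC22A10_OE. It encodes a protein with matrin-type zinc fingers whose work is little known, and lies on the minus strand of chromosome X at 101882290 to 101932027. It had 3.93, 3.38 and 3.31 CPM in SLC22A10_OE, 1.02, 1.07 and 1.20 CPM in SLC22A15_OE, and 6.15, 8.72 and 7.29 CPM in vector. All SLC22A15_OE libraries were the lowest, and no group overlapped another. Means of 3.54 ± 0.339 CPM in SLC22A10_OE and 1.09 ± 0.0938 CPM in SLC22A15_OE were 47.9% and 14.8% of the vector mean of 7.39 ± 1.29 CPM (log2 fold changes -0.88 and -1.99, SE 0.12). By the log2 fold change on log2(CPM + 1) ZMAT1 stood at 528 among all genes tested in SLC22A10_OE and at 7 in SLC22A15_OE.

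Of 13 other tested genes for matrin-type and related RNA-binding zinc fingers, 1 was called higher and 5 lower in SLC22A10_OE (median -0.08; 1 and 8 with centring), and 0 higher and 2 lower in SLC22A15_OE (median -0.03). The higher count in SLC22A15_OE by limma was also 0 at an unadjusted p under 0.05, 0 by edgeR and 0 by DESeq2, and 1 with the term for mitochondrial ribosomal RNA. Without SLC22A15_OE library 3 or vector library 3 the lower count in SLC22A15_OE was 1. The p53 target ZMAT3 fell to 38.7 ± 1.39 CPM in SLC22A10_OE and 45.5 ± 1.07 CPM in SLC22A15_OE, against 52.0 ± 0.662 CPM in vector (log2 fold changes -0.42 and -0.19, adjusted p = 1.49e-05 and 0.0224), the second call lost without SLC22A15_OE library 3 or vector library 3 (0.0722 to 0.0929). ZFR, ZNF346 and ILF2, which bind double-stranded RNA, fell by 0.40, 0.35 and 0.25 in SLC22A10_OE (adjusted p = 3.37e-06, 6.00e-05 and 0.000195). Their log2 fold changes in SLC22A15_OE were -0.03, -0.02 and -0.06 (adjusted p = 0.716, 0.880 and 0.388).

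**Figure D2:**
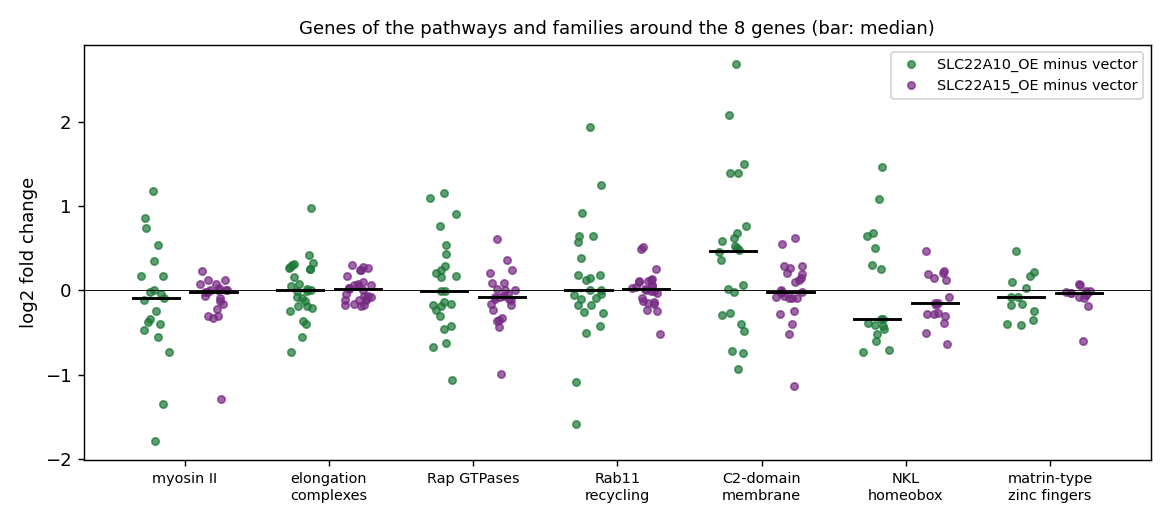
Log2 fold change on log2(CPM + 1) of each tested gene in 7 lists around the 8 genes, which are left out, for SLC22A10_OE minus vector and SLC22A15_OE minus vector, with a bar at the list's median. The lists spread to both sides of 0, and the widest median is 0.47 for the C2-domain genes in SLC22A10_OE.

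Over the 7 lists together, 53 genes were called higher and 55 lower in SLC22A10_OE, and 18 higher and 19 lower in SLC22A15_OE. Centring changed the SLC22A10_OE split to 44 higher and 69 lower. Leaving out vector library 2 or 3 lowered the higher count in SLC22A15_OE to 11, leaving out SLC22A15_OE library 3 or vector library 3 lowered the lower count to 12, and a term for mitochondrial ribosomal RNA raised it to 33.

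Set directly against each other, the transporter lines differed for 6 of the 8 genes by limma with Benjamini-Hochberg adjustment over all genes tested. The choice of genes did not use this contrast, though it rests on the same libraries, and 62.9% of all genes tested were called in it, 32.1% higher and 30.8% lower in SLC22A10_OE than in SLC22A15_OE. With most genes called, the count of 6 is not read as a trait of these genes. Of the 8 genes, 4 were called lower in SLC22A10_OE. MYH15 was lower by 1.11 on the log2 scale (log2 fold change -1.11, 95% interval -1.33 to -0.89, adjusted p = 1.07e-06). SIPA1L2 differed by -1.11 (-1.49 to -0.74, adjusted p = 0.000107). The match of the 2 values depends on the added 1 CPM, and edgeR on the recovered reads gave -1.34 for MYH15 and -1.53 for SIPA1L2. For both genes all 3 SLC22A10_OE libraries lay below all 3 of SLC22A15_OE. MCTP1 differed by -0.33 (-0.52 to -0.14, adjusted p = 0.00524), also without overlap. ELL2 differed by -0.27 (-0.47 to -0.08, adjusted p = 0.0173), a call lost without SLC22A10_OE library 2 or 3 or SLC22A15_OE library 2 (adjusted p 0.0600 to 0.0876).

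The other called genes were higher in SLC22A10_OE. ZMAT1 differed by 1.11 (0.85 to 1.38, adjusted p = 4.75e-06) and SH3TC2 by 0.37 (0.25 to 0.49, adjusted p = 6.46e-05), with all 3 SLC22A10_OE libraries above all 3 of SLC22A15_OE in both cases. HLX was not called, with a difference of 0.11 whose interval ran from -0.15 to 0.37 (adjusted p = 0.448). SH3TC2-DT, at -0.21 (-0.45 to 0.04, adjusted p = 0.135), was not called either, although its lines did not overlap, and it was called with each library centred on its median (-0.30, adjusted p = 0.0345). The 6 line libraries of SH3TC2-DT held 15 to 37 reads each, all under the added 1 CPM. Neither a call nor a direction is therefore read from its difference. Centring shifted the median of this contrast by -0.09, and those against vector by -0.12 in SLC22A10_OE and -0.03 in SLC22A15_OE.

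**Figure D3:**
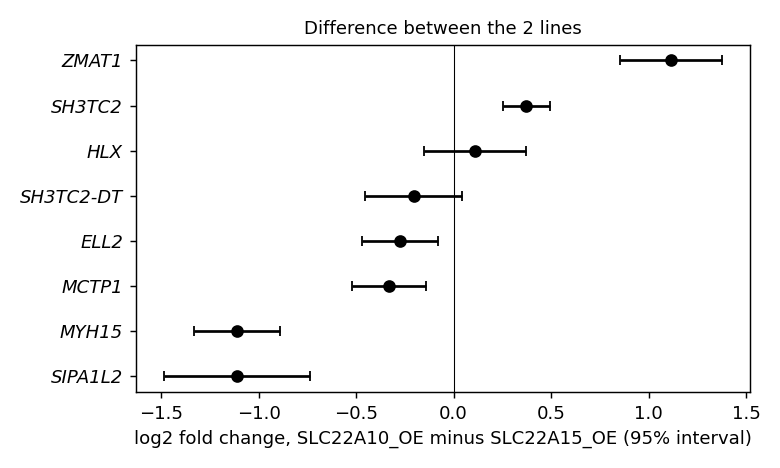
Difference of each gene between the transporter lines as log2 fold change, SLC22A10_OE minus SLC22A15_OE, with its 95% interval from the limma fit. ZMAT1 and SH3TC2 lie right of 0, the intervals of HLX and SH3TC2-DT cross it, and ELL2, MCTP1, MYH15 and SIPA1L2 lie left of it.

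The order of levels among the 8 genes changed between groups. Exon length was taken as all bases covered by any GENCODE exon of a gene, 5.66 kb for HLX and 15.2 kb for SH3TC2. For HLX this exceeds its RefSeq span of 5.617 kb, so the order depends on the annotation. Per kb of exon, ELL2 was highest with 2.97 ± 0.405 CPM per kb in SLC22A10_OE, 3.61 ± 0.305 in SLC22A15_OE and 14.2 ± 0.755 in vector, and SH3TC2 was next with 2.13 ± 0.117, 1.63 ± 0.0148 and 8.53 ± 0.0862 CPM per kb. In vector, MYH15 followed at 6.09 ± 0.523 CPM per kb, then MCTP1 at 2.97 ± 0.198, HLX at 2.60 ± 0.210 and SIPA1L2 at 2.32 ± 0.263, where MCTP1 and HLX overlapped and so did HLX and SIPA1L2. SH3TC2-DT at 1.54 ± 0.143 and ZMAT1 at 0.983 ± 0.171 CPM per kb were the lowest in vector and did not overlap. MYH15, next after SH3TC2 in vector, had 0.419 ± 0.0322 CPM per kb in SLC22A10_OE, where it overlapped HLX at 0.477 ± 0.0906 and ZMAT1 at 0.471 ± 0.0451 and lay below MCTP1 at 0.588 ± 0.0520. In SLC22A15_OE it again came next after SH3TC2, at 1.06 ± 0.140 CPM per kb. The lowest there were SH3TC2-DT at 0.157 ± 0.0365 and ZMAT1 at 0.145 ± 0.0125, which overlapped.

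The choice of these genes left out others with falls as deep. Ranked on log2(CPM + 1) by the smaller of the falls in the 2 lines, MYH15 stood first, SH3TC2-DT, HLX, SH3TC2 and ELL2 at 3 to 6, MCTP1 at 8, SIPA1L2 at 11 and ZMAT1 at 79. On that scale, 57 tested genes had a log2 fold change of -1 or less in both lines, 7 of the 8 and 50 others. Just above ZMAT1 in that ranking stood ADTRP (-0.88 in SLC22A10_OE and -1.37 in SLC22A15_OE) and just below it CD44 (-1.11 and -0.88), and ZMAT1 itself had -0.88 and -1.99.

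**Figure D4:**
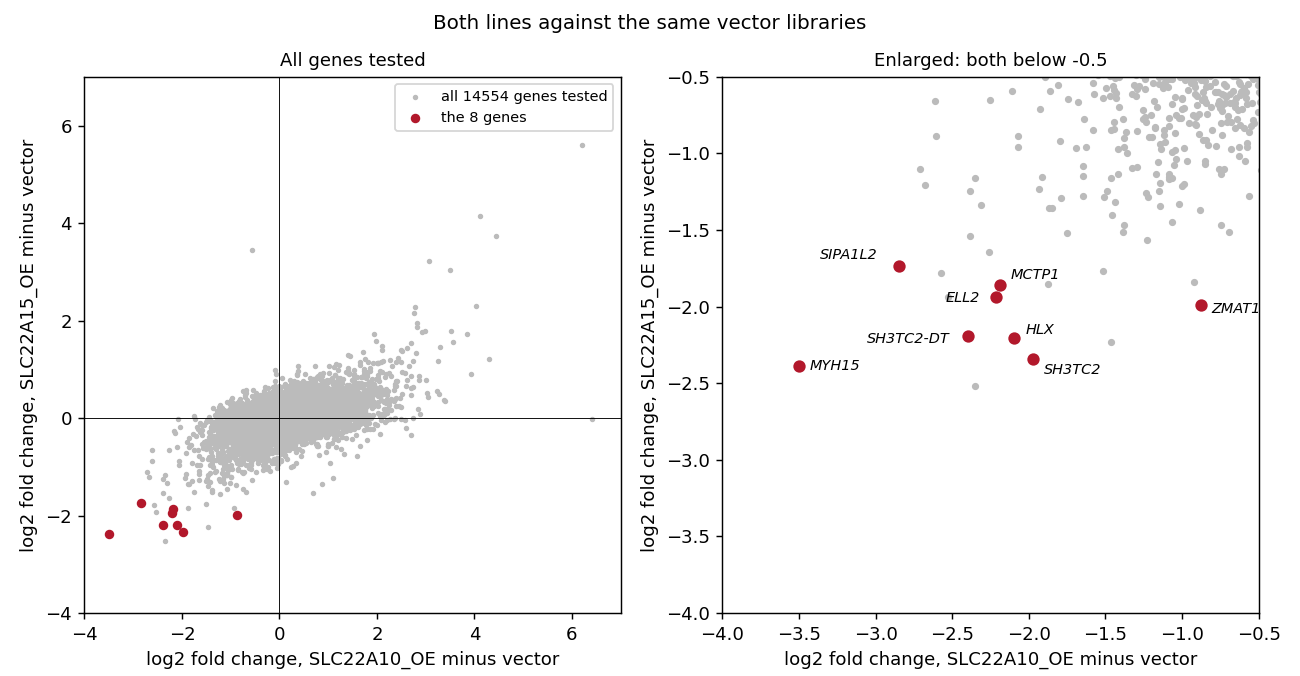
Log2 fold change on log2(CPM + 1) of SLC22A10_OE minus vector against SLC22A15_OE minus vector for 14554 genes tested, all of them at left and an enlargement at right, with the 8 genes in red. The axes share the vector libraries, and the 8 genes lie at the lower left, MYH15 farthest left at -3.50 and ZMAT1 nearest to 0 on the horizontal axis at -0.88.

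Taken over all 8 genes, the neighbouring genes did not fall as a block, but the loci differed. Of the 8 genes, 4 lie on chromosome 5, which holds 680, or 4.72%, of the tested genes with a position. The median log2 fold change of those 680 was -0.05 in SLC22A10_OE and -0.04 in SLC22A15_OE. Within 1 Mb of the 8 genes, 62 other genes were tested. Of these, 26 were called higher and 21 lower in SLC22A10_OE (41.9% and 33.9%), and 10 higher and 11 lower in SLC22A15_OE (16.1% and 17.7%), with median log2 fold changes of 0.09 and -0.02. Centring changed the SLC22A10_OE split to 20 higher and 25 lower, and without vector library 2 or 3 the lower count in SLC22A15_OE was 7. Around SH3TC2 and SH3TC2-DT, which share 12 tested neighbours, 7 were called lower and 4 higher in SLC22A10_OE, and 4 lower and 2 higher in SLC22A15_OE. Around MYH15, of 5 neighbours, 3 were called lower and 2 higher in SLC22A10_OE, and 3 lower and 0 higher in SLC22A15_OE. Of all genes tested, 32.5% and 9.58% were called lower in the 2 lines.

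Neighbours called lower with a log2 fold change of -0.5 or less in each comparison included AFAP1L1 and MARK1. AFAP1L1, which encodes an actin filament-associated protein, lies 162 kb from SH3TC2-DT. Its level was 5.598 ± 0.0186 CPM in SLC22A10_OE and 5.70 ± 0.0910 CPM in SLC22A15_OE, against 12.1 ± 0.622 CPM in vector (log2 fold changes -0.99 and -0.96, adjusted p = 2.67e-07 and 2.38e-06). It was the nearest tested gene on that side. MARK1, a kinase gene that regulates microtubules, lies 215 kb from HLX and had 2.96 ± 0.0952 CPM in SLC22A10_OE and 2.62 ± 0.242 CPM in SLC22A15_OE, against 9.33 ± 0.699 CPM in vector (log2 fold changes -1.38 and -1.51, adjusted p = 6.17e-08 and 2.04e-07). The tested gene next to HLX on that side, MARC1, a mitochondrial reductase gene, lay between them and rose by 0.80 in SLC22A10_OE (adjusted p = 1.05e-05). In SLC22A15_OE its log2 fold change was 0.26 (adjusted p = 0.0812, and 0.0086 with the term for mitochondrial ribosomal RNA).

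Around the other genes, no nearest tested neighbour had a log2 fold change of -0.5 or less in both lines. CIP2A, an inhibitor of the phosphatase PP2A whose RefSeq span overlaps that of MYH15, fell by 0.59 in SLC22A10_OE (adjusted p = 1.00e-05) and had a log2 fold change of -0.05 in SLC22A15_OE (adjusted p = 0.680). IFT57, on the other side, fell by 0.35 and 0.26 (adjusted p = 0.00218 and 0.0403), the second lost without SLC22A10_OE library 1, SLC22A15_OE library 1 or 2 or vector library 2 or 3 (0.0565 to 0.141). Of 7 tested neighbours of SIPA1L2, 5 were called higher in SLC22A10_OE and 6 in SLC22A15_OE, and the others were not called. Among them, MAP10 rose by 0.32 and 0.31 (adjusted p = 0.00137 and 0.00634), and DISC1, at 1.46 ± 0.230 CPM in SLC22A10_OE, 0.686 ± 0.217 CPM in SLC22A15_OE and 0.563 ± 0.121 CPM in vector, was called higher in SLC22A10_OE (0.65, adjusted p = 0.000672). Beside ZMAT1, ARMCX2 rose by 0.70 in SLC22A10_OE (adjusted p = 7.21e-07) and fell by 0.25 in SLC22A15_OE (adjusted p = 0.0142, and 0.0609 to 0.0649 without SLC22A15_OE library 2 or vector library 2). ARMCX5, on the other side, had log2 fold changes of 0.20 and 0.04 (adjusted p = 0.0378 and 0.794), the first lost with centring (0.388) and without SLC22A10_OE library 1 or 2 or vector library 1 (0.0775 to 0.146).

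MCTP1 and ELL2 lie on the same strand of chromosome 5, and the genes between them did not share their fall. TTC37, the nearest tested gene upstream of MCTP1, rose by 0.31 in SLC22A10_OE (adjusted p = 0.000199) and had a log2 fold change of -0.04 in SLC22A15_OE (adjusted p = 0.623). GLRX, the glutaredoxin gene next to ELL2, had 5.68 ± 0.782 CPM in SLC22A10_OE, 1.68 ± 0.539 CPM in SLC22A15_OE and 2.26 ± 0.0459 CPM in vector (log2 fold changes 1.03 and -0.30, adjusted p = 3.21e-05 and 0.167). CAST, the calpastatin gene whose RefSeq span overlaps that of ELL2, fell by 0.27 on the log2 scale in each line (adjusted p = 0.00802 and 0.0242), the second lost without SLC22A15_OE library 1 or vector library 2 or 3 (0.0845 to 0.102). On the far side of HLX the nearest tested gene, TAF1A, lay 1669 kb away, with log2 fold changes of -0.09 and 0.21 (adjusted p = 0.418 and 0.141, the second 0.00407 with the term for mitochondrial ribosomal RNA).

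**Figure D5:**
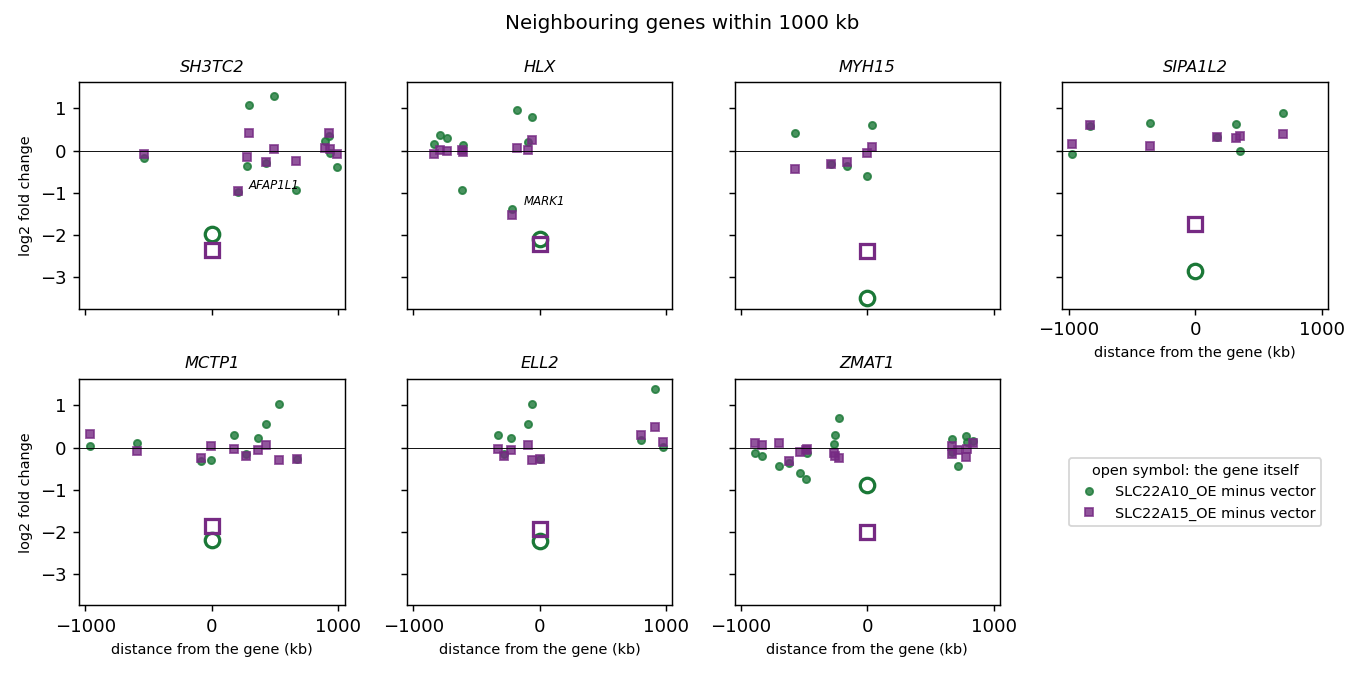
Log2 fold change of tested genes within 1 Mb of 7 of the 8 genes (SH3TC2-DT shares the SH3TC2 panel) against the distance in kb between gene ends, left of a gene drawn negative, for SLC22A10_OE minus vector and SLC22A15_OE minus vector. Open symbols at 0 are the genes themselves, and AFAP1L1 and MARK1 are named.

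Genes with the pattern most like that of the 8 were sought over the 9 libraries. The measure was Pearson's r with the mean of the 8 genes after each was scaled to unit variance, among 35 other genes with at least 5 CPM in vector and a log2 fold change of -1 or less in each line. The points fall into the 3 groups, so r describes mainly the distance from vector. The 8 with the highest r were IGF2BP2 (0.997), RGMB (0.996), EMP1 (0.994), CHD7 (0.994), SLC20A1 (0.992), MARK1 (0.990), LTBP2 (0.989) and PRND (0.984). IGF2BP2, an RNA-binding protein gene, averaged 52.4 ± 3.13 CPM in SLC22A10_OE, 53.6 ± 1.24 CPM in SLC22A15_OE and 119 ± 3.21 CPM in vector. EMP1, an epithelial membrane protein gene, averaged 39.3 ± 1.99, 46.4 ± 1.59 and 135 ± 4.06 CPM in the same groups, and the phosphate transporter gene SLC20A1 averaged 266 ± 4.72, 315 ± 5.11 and 749 ± 2.09 CPM. The 8 genes are each part of their common mean, so their own r with it is only a description. It was highest for SH3TC2-DT (0.996), whose line libraries lie under the added 1 CPM, and lowest for ZMAT1 (0.803) and SIPA1L2 (0.926).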

How the data were processed

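The authors deposited CPM values (reads scaled to library size) for 16750 genes in 9 libraries, and log2 fold changes of each line against vector, so named per the file headers. edgeR and the builds hg38 and mm9 are named in the submitters' processing notes, without a role. Aligner, counting software, strand setting and annotation are not given in the sources used. Columns carry a group name and a number from 1 to 3, and libraries are named by these. The titles end in A1, A2 and B1 instead, and columns could not be matched to them, so a set shared across groups could not enter a fit.

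All deposited CPM values were within 0.1 read of a whole multiple of 1 read (100% of values), so whole reads were recovered, and 1 CPM stood for 27.8 to 43.4 reads. The tool for tests was limma 3.58.1 (R 4.3.3) on log2(CPM + 1) with a mean trend, on all 9 libraries in 1 fit with 6 residual degrees of freedom and 3 contrasts. Genes with at least 1 CPM in at least 3 libraries were tested, 14554 of them, with two-sided p-values adjusted by Benjamini-Hochberg at 0.05. In the recovered reads, edgeR 4.0.16 and DESeq2 1.42.0 were alternatives. Libraries of a group differed by more than counting noise (chi-square per degree of freedom 2.56 to 23.1).

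The members and lists were chosen with earlier results of these data known. Named list genes were up to 4 per list, those called in most lines and with the smallest adjusted p. Named neighbours were the nearest tested gene on each side and those called at -0.5 or less in each line; 1 gene so named is not reported here. Paralogs and CDK9 were added after their values were seen. Positions came from RefSeq and overlaps from GENCODE. Promoter windows came from RefSeq, which held 7 of the 8 genes, and ELL2 is named only. Motifs were searched on both strands.

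Whether a shared column number pairs libraries was checked by correlating deviations from group means. SLC22A15_OE and vector gave 0.57, 0.31 and 0.19 for numbers 1 to 3, SLC22A10_OE and vector -0.41, 0.14 and -0.26, and SLC22A10_OE and SLC22A15_OE -0.39, 0.11 and -0.36.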

Additional observations from a re-analysis of the deposited data

Results flagged for a closer look

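The falls against vector differed between the 2 transporter lines for 6 of the 8 genes. The test was the limma contrast of SLC22A10_OE minus SLC22A15_OE, with Benjamini-Hochberg adjustment over 14554 genes. Most genes tested, 62.9%, were called in it, so the count of 6 is not read as a trait of these genes. The difference on log2(CPM + 1) was -1.11 for MYH15 and -1.11 for SIPA1L2, genes for a myosin heavy chain and a Rap regulator, and 1.11 for the zinc finger gene ZMAT1. It was 0.37 for the endosomal adaptor gene SH3TC2, -0.33 for the C2-domain gene MCTP1 and -0.27 for the elongation factor gene ELL2. The 3 SLC22A10_OE libraries were all on one side of the 3 SLC22A15_OE libraries for each of these but ELL2. The equal sizes for MYH15, SIPA1L2 and ZMAT1 depend on the added 1 CPM. As ratios of mean CPM, SLC22A15_OE exceeded SLC22A10_OE 2.53 times for MYH15 and 2.79 times for SIPA1L2. For ZMAT1, SLC22A10_OE exceeded SLC22A15_OE 3.24 times.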

How the results depend on the processing

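Under 18 alternative settings, all 288 log2 fold changes of the 8 genes against vector were below 0. The genes were chosen for falls in these same libraries, so this sign was set by the choice and is no support for the falls. The widest range was that of SH3TC2-DT, from -3.91 to -2.36 in SLC22A10_OE and from -3.29 to -2.13 in SLC22A15_OE, since its line libraries lie under the added 1 CPM. The number of the 8 genes called between the lines was 6 in the fit reported. It was 6 with the column number as a replicate block and 5 to 6 with 1 library left out. With each library centred on its median it was 7, the gain being SH3TC2-DT, from which no call is read. With a term for the libraries poor in mitochondrial ribosomal RNA, the list genes called lower in SLC22A15_OE were 33 where the fit reported gave 19, and all genes called there were 5608 where it gave 2966; the cause was not tested. With 1 library left out, list genes called in SLC22A15_OE ran from 11 to 19 higher and from 12 to 20 lower, and neighbours called lower there from 7 to 14. The replicate block ended no call named in the text other than those of HEXIM2, HHEX and RAPGEFL1 in SLC22A15_OE. Depth limits SH3TC2-DT most, with 15 reads in each SLC22A10_OE library.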

Other observations

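Among genes outside the 8, XDH, CDK15, PRND and ROBO4 ranked within the first 11 on log2(CPM + 1) by the smaller of the falls in the 2 lines, which share the vector libraries. They were picked for these values, which are given as a description. XDH, the xanthine dehydrogenase of purine breakdown, had 1.76, 2.46 and 1.62 CPM in SLC22A10_OE, 1.87, 1.72 and 1.27 CPM in SLC22A15_OE, and 14.3, 14.2 and 13.3 CPM in vector. CDK15, a cyclin-dependent kinase gene, had 0.155, 0.115 and 0.0720 CPM in SLC22A10_OE, 0.984, 0.364 and 0.737 CPM in SLC22A15_OE, and 4.46, 5.71 and 6.18 CPM in vector. PRND, a relative of the prion protein gene, averaged 2.43 CPM in SLC22A10_OE, 2.53 CPM in SLC22A15_OE and 11.6 CPM in vector. ROBO4, a receptor gene known from endothelium, averaged 1.28 CPM in SLC22A10_OE, 2.96 CPM in SLC22A15_OE and 12.5 CPM in vector. For each of these genes, all 6 libraries of the transporter lines lay below the 3 vector libraries.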
